A study of Mus musculus with 72 samples.

Results

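Epididymal white adipose tissue (eWAT) of male mice on a high fat diet was compared between the offspring of undernourished and of freely fed dams, in all genes that were measured. The comparison takes the eWAT libraries whose labels give the high fat diet, which are 12 of the 72 libraries of the series, 6 of CR20-HFD and 6 of FED-HFD mice. All mice were males of the sighted FVB strain (FVB.129P2). Dams of the FED mice ate freely. Dams of the CR20 mice had their food cut by 20% between embryonic day 15 and weaning at postnatal day 21. Both groups were given a diet with 45% fat (HFD) from 8 weeks of age. The study's text gives 10 weeks on the diet for the mice that were sequenced, and the sample labels leave the time open. Offspring on a diet with 10% fat (CTRL) form the other eWAT groups, FED-CTRL and CR20-CTRL, with 6 mice each. The dam of each mouse is not given in the labels, so littermates may be among the 6 mice of a group, and the p-values measure the spread between these mice.

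White adipose tissue stores energy as triglyceride in adipocytes, which share the tissue with progenitors, blood vessels and immune cells. In the obese mouse, monocytes are drawn into eWAT through the chemokine receptor Ccr2 and become macrophages, many of which surround dying adipocytes, take up their lipid and break it down in lysosomes. Such lipid-associated macrophages are known by Trem2, Gpnmb and Cd9, whereas macrophages that live in lean fat are known by Lyve1, Timd4 and Cd163. Adipocytes of obese mice often express less of the genes for insulin-regulated glucose uptake and for adipokines such as adipsin (Cfd).

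Total counts of the 12 libraries ranged from 12042184 to 21046778, and the floor of 3 counts per library amounted to 0.143 to 0.249 CPM. CPM set counts against the total count of a library. That total is scaled by TMM factors, except for the floors and the sums of hepatocyte genes, which are plain shares. The adipocyte hormone adiponectin (Adipoq) was found in each library at 644 CPM or more, as the tissue label says. Before any comparison, 4 of the 12 mice need a remark. FED-HFD mouse 23 lay apart from the other mice on the first principal component of the 24 eWAT libraries, at 112.4 where the other 5 FED-HFD mice lay between 13.0 and 46.9. Its 18 adipocyte markers summed to 25502 CPM, and those of the other FED-HFD mice to between 56529 and 73346 CPM. FED-HFD mice 10 and 13 held liver transcripts, with 12 hepatocyte genes at a sum of 987 and 194 CPM against 6.16 to 24.4 CPM in the remaining 10 mice, which was 0.764% and 0.150% of the median sum in liver. CR20-HFD mouse 6 held 395 counts of 11 epididymis and testis genes, and the other 11 mice 0 to 3. Of the 12 control-diet mice, CR20-CTRL mouse 5 held liver transcripts too, at a sum of 834 CPM (0.645% of the liver level) against 13.9 to 47.9 CPM in the other 11. It lay at -112.8 on the second principal component, where the other 23 mice lay at -46.1 or above, and its adipocyte markers summed to 35093 CPM. CR20-CTRL mice 4 and 5 held 2682 and 721 counts of the epididymis and testis genes, and the other control-diet mice 0 to 3. The counts of called genes below were also computed without these mice.

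In CR20-HFD vs FED-HFD, more genes were lower than higher in the offspring of undernourished dams. In edgeR's quasi-likelihood test, a gene counted as called where its log2 fold change (log2FC, CR20-HFD minus FED-HFD) was 1 or more in either direction with an adjusted p-value no higher than 0.055. Of 15964 genes tested, 877 were called (5.49%), 763 of them lower (4.78%) and 114 higher (0.714%) in CR20-HFD. The adjusted p-value alone was passed by 1667 lower (10.4%) and 843 higher genes (5.28%). The 2 directions differed in size, as the median absolute log2FC of these genes was 0.91 among the lower and 0.55 among the higher, and 45.8% and 13.5% of them reached the fold threshold. All 6 CR20-HFD mice lay below all 6 FED-HFD mice in 390 of the 763 genes called lower, and above them in 43 of the 114 called higher, where over all tested genes 4.17% and 2.5% were separated in this way.

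How much of this rested on 1 mouse was seen by leaving out each of the 12 in turn. Without FED-HFD mouse 23, 446 genes were called, 386 lower and 60 higher, and 436 of them were among the 877. Each of the other 11 mice could be left out with 791 to 1024 genes called. Mouse 23 had the highest value of its group in 683 of the 763 lower genes (89.5%) and the lowest in 76 of the 114 higher genes (66.7%). Both directions held genes that every leave-one-out fit called, 351 lower and 42 higher. Without FED-HFD mice 10 and 13 there were 925 genes, and without CR20-HFD mouse 6 there were 852. Voom with quality weights in limma, the test in the study's methods, called 663 genes, of which 577 were among the 877.

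**Figure D1:**
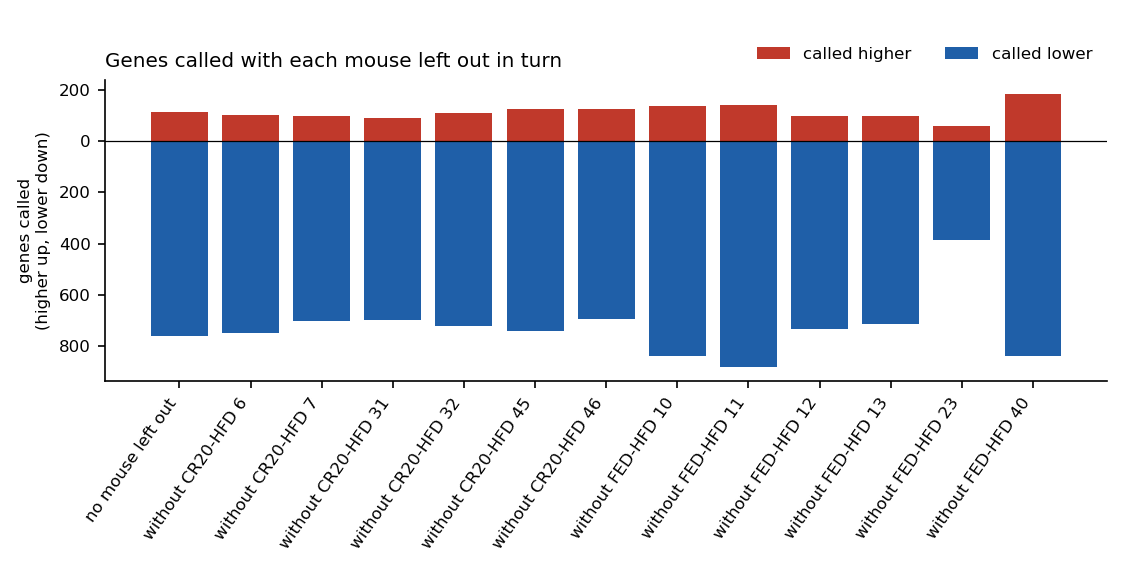
Number of genes called in CR20-HFD vs FED-HFD with no mouse left out and with each of the 12 mice left out in turn. Bars above 0 count genes called higher and bars below 0 genes called lower in CR20-HFD, and the count is lowest, at 60 and 386, without FED-HFD mouse 23.

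The gene with the smallest p-value was Ccr2 (ENSMUSG00000049103, GRCm39 chromosome 9 from 123901982 to 123913594, plus strand), the receptor through which monocytes follow the chemokine Ccl2. Ccr2 ranged from 45.9 to 77.2 CPM (median 66.0) in the FED-HFD mice, and from 20.9 to 31.2 CPM (median 28.2) in CR20-HFD. All CR20-HFD mice lay below all FED-HFD mice, and mouse 23 was not the highest of its group. The difference was 2.46-fold, with a log2FC of -1.30, SE 0.15, adjusted p = 0.000214, and in bulk tissue fewer cells of a type and less RNA per cell cannot be told apart. H2-Aa (ENSMUSG00000036594, chromosome 17 from 34493404 to 34506798, minus strand), the alpha chain of an MHC class II molecule, had the next smallest p-value of the protein-coding genes that were lower. H2-Aa ranged from 1221 to 2004 CPM (median 1746) in the FED-HFD mice, and from 827 to 974 CPM (median 929.8) in CR20-HFD, again with no overlap. Its log2FC of -0.85, SE 0.11, adjusted p = 0.000522 did not reach the fold threshold, so it was not called.

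The 250 bases before the most upstream annotated start of these genes are shown from the GRCm39 genome, 5′ to 3′ on the strand of the gene, since they are the lower protein-coding genes with the smallest p-values. The Ccr2 window lies at chr9:123901732-123901981 and the H2-Aa window at chr17:34506799-34507048. Capitals mark matches to any of 6 motifs that were searched on both strands.
Ccr2: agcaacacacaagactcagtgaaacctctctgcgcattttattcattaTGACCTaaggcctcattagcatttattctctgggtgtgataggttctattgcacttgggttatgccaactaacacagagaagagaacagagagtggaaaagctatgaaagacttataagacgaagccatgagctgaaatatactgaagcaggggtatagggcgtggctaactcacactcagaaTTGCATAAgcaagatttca
H2-Aa: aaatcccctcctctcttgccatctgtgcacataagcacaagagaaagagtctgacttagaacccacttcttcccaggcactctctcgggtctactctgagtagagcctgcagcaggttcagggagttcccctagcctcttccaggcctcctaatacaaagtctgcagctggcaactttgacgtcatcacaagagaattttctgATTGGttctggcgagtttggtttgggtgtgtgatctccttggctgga
The letters in capitals in Ccr2 are TGACCT, the reverse complement of the nuclear receptor half-site AGGTCA, and a match to TTGCNNAA of the C/EBP family, a family of factors that is active in monocytes and in adipocytes. In H2-Aa they are ATTGG, the reverse complement of the motif CCAAT that NF-Y binds, at 43 to 47 bases before the start. An inverted CCAAT box is a known element of MHC class II promoters. Among the windows of all 13900 tested protein-coding genes, 12.7% held AGGTCA, 8.8% held TTGCNNAA and 35.0% held CCAAT. Of the 699 genes called lower, 18.7%, 9.0% and 30.8% held them, and of the 89 called higher 9.0%, 4.5% and 38.2%. GAGGAA, a core that PU.1 and other ETS factors bind, was in 23.3% of all windows, 30.5% of those called lower and 20.2% of those called higher. The motif of interferon regulatory factors, a repeat of GAAA with a gap, was in 3.3% of all, 3.6% of the lower and 2.2% of the higher windows, and TATAAA in 8.6%, 9.0% and 7.9%. The motifs do not overlap each other in the 2 windows shown. The windows of the 2 higher genes chosen by the same rule, Thra and Pacsin3, held none of the 6 motifs. The matches above are a description of letters and not of binding.

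The other lower genes with the smallest p-values were mostly genes of leukocytes. They were Pira2, an activating paired immunoglobulin-like receptor, Atp8b4, a lipid flippase, Art2a, an ADP-ribosyltransferase of the cell surface, Rhoh, a GTPase of blood cells, Slc15a3, a peptide and histidine transporter of lysosomes, Dhrs9, a retinol dehydrogenase, Cd180, a Toll-like receptor homologue, Ptpn22, a phosphatase of antigen receptor signalling, and Tlr8. Their log2FC ranged from -3.88 in Art2a to -1.59 in Rhoh, and each had an adjusted p-value of 0.000522. The reads of Pira2 and Art2a are shared with near-identical copies, which makes their own levels uncertain. Tlr8 ranged from 27.7 to 121 CPM (median 53.2) in the FED-HFD mice, and from 8.31 to 14.3 CPM (median 11.7) in CR20-HFD. The highest CR20-HFD mouse was thus below the lowest FED-HFD mouse for this receptor of single-stranded RNA (log2FC of -2.41, SE 0.35, adjusted p = 0.000522). Pira2 ranged from 2.73 to 10.0 CPM (median 3.38) in the FED-HFD mice, and from 0.643 to 1.35 CPM (median 0.835) in CR20-HFD, and there too the groups did not overlap (log2FC of -2.36, SE 0.32, adjusted p = 0.000522).

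Genes of macrophages were lower in CR20-HFD, those of lipid-associated macrophages included. Of 12 macrophage genes, 8 were called lower (median log2FC of the list -1.51, of all genes 0.02), and of 12 genes of lipid-associated macrophages 10 were (median -2.67). Over all tested genes 4.78% were called lower. These lists and those below were chosen with earlier results of these data known, so their counts may partly restate that choice. Adgre1, which encodes the macrophage antigen F4/80, had values that ranged from 93.1 to 455 CPM (median 151) in FED-HFD, and from 39.1 to 63.0 CPM (median 42.1) in CR20-HFD. All CR20-HFD mice were below the FED-HFD mice, among which mice 10, 11 and 40 were the lowest and mouse 23 the highest (log2FC of -2.08, SE 0.32, adjusted p = 0.000601). Cd68, a glycoprotein of macrophage lysosomes, ranged from 175 to 953 CPM (median 272) in FED-HFD, and from 46.5 to 121 CPM (median 80.8) in CR20-HFD. The same 3 FED-HFD mice were lowest and mouse 23 was highest, with no overlap between the groups (log2FC of -2.25, SE 0.36, adjusted p = 0.000611). Cd84 ranged from 57.2 to 402 CPM (median 100.2) in the FED-HFD mice, and from 13.0 to 38.2 CPM (median 23.5) in CR20-HFD, for a receptor of the SLAM family (log2FC of -2.58, SE 0.45, adjusted p = 0.000859).

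In the lipid-associated list, Lipa, the lysosomal acid lipase that frees cholesterol and fatty acids, had the smallest p-value. Lipa ranged from 219 to 1604 CPM (median 369.9) in the FED-HFD mice, and from 76.1 to 145 CPM (median 101) in CR20-HFD. The 3 FED-HFD mice with the highest Lipa were mice 12, 13 and 23, and no CR20-HFD mouse reached the lowest FED-HFD mouse (log2FC of -2.41, SE 0.39, adjusted p = 0.000611). Mmp12, the macrophage elastase, ranged from 186 to 4149.5 CPM (median 410.4) in FED-HFD, and from 7.83 to 104.5 CPM (median 68.0) in CR20-HFD. CR20-HFD mice 31 and 32 were the lowest, and the groups did not overlap (log2FC of -4.10, SE 0.84, adjusted p = 0.00230). Gpnmb, a glycoprotein of lipid-laden macrophages, was lower (log2FC of -3.83, SE 0.73, adjusted p = 0.00144), as were Trem2, the lipid-sensing receptor (log2FC of -2.63, SE 0.53, adjusted p = 0.00197), and Atp6v0d2, a subunit of the proton pump (log2FC of -3.20, SE 0.64, adjusted p = 0.00208). The tetraspanin Cd9 passed the adjusted p-value without reaching the fold threshold (log2FC of -0.94, SE 0.32, adjusted p = 0.0527).

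Macrophages that live in lean fat gave another picture. Of its 12 genes, 1 was called lower and 7 had a log2FC above 0, with a list median of 0.06. The lectin Clec10a was the 1 called (log2FC of -1.25, SE 0.28, adjusted p = 0.00420), with values that ranged from 94.3 to 406 CPM (median 144) in FED-HFD, and from 48.0 to 129 CPM (median 74.1) in CR20-HFD, so that the groups overlapped through CR20-HFD mouse 6. Without FED-HFD mouse 23 its log2FC was -0.85. The mannose receptor Mrc1 passed the adjusted p-value (log2FC of -0.95, SE 0.20, adjusted p = 0.00301), and the scavenger receptor Cd163 (log2FC of -0.05, SE 0.15, adjusted p = 0.865) and the hyaluronan receptor Lyve1 (log2FC of 0.16, SE 0.29, adjusted p = 0.746) did not. Without FED-HFD mouse 23, 7 macrophage, 9 lipid-associated and 0 resident genes were called lower, with medians of -1.07, -1.90 and 0.03. Whether the log2FC of the lists differed from each other was not tested.

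**Figure D2:**
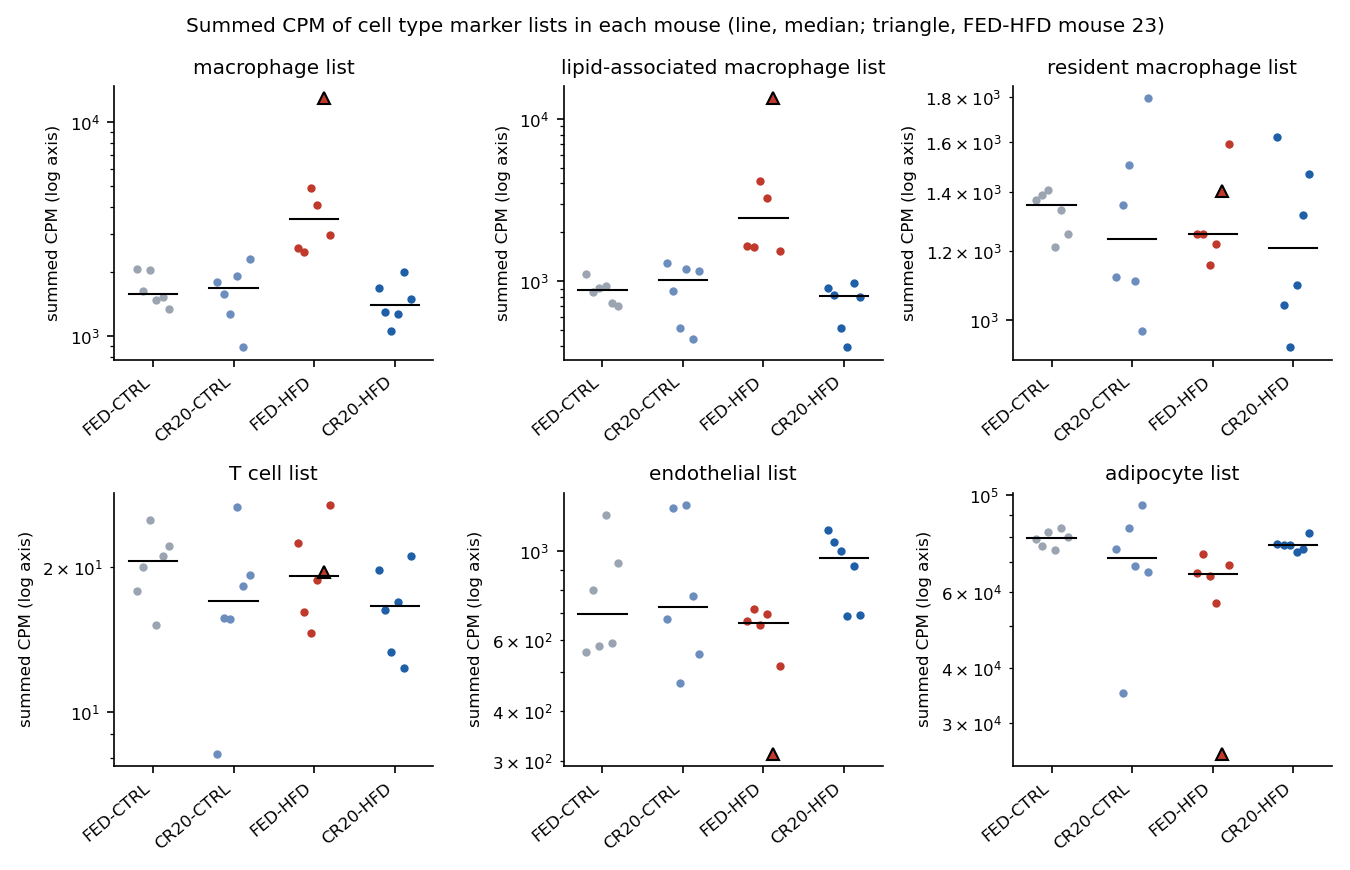
Summed CPM (log axis) of 6 marker lists in each of the 24 eWAT mice, with a line at the median of each group and a black-edged triangle for FED-HFD mouse 23. The macrophage sum was 2473 to 12872 CPM in FED-HFD and 1055 to 1996 CPM in CR20-HFD, the lipid-associated sum 1545 to 13361 and 393 to 975 CPM, and the resident sum 1157 to 1593 and 931 to 1622 CPM, while the adipocyte sum was 25502 to 73346 and 74021 to 81821 CPM.

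The summed levels of the lists moved against each other. The adipocyte sum of each CR20-HFD mouse was above that of each FED-HFD mouse, while the macrophage sum was below it. CPM are relative to the TMM-scaled total of a library, and the part of the one list's level in the other's was not tested.

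**Figure D3:**
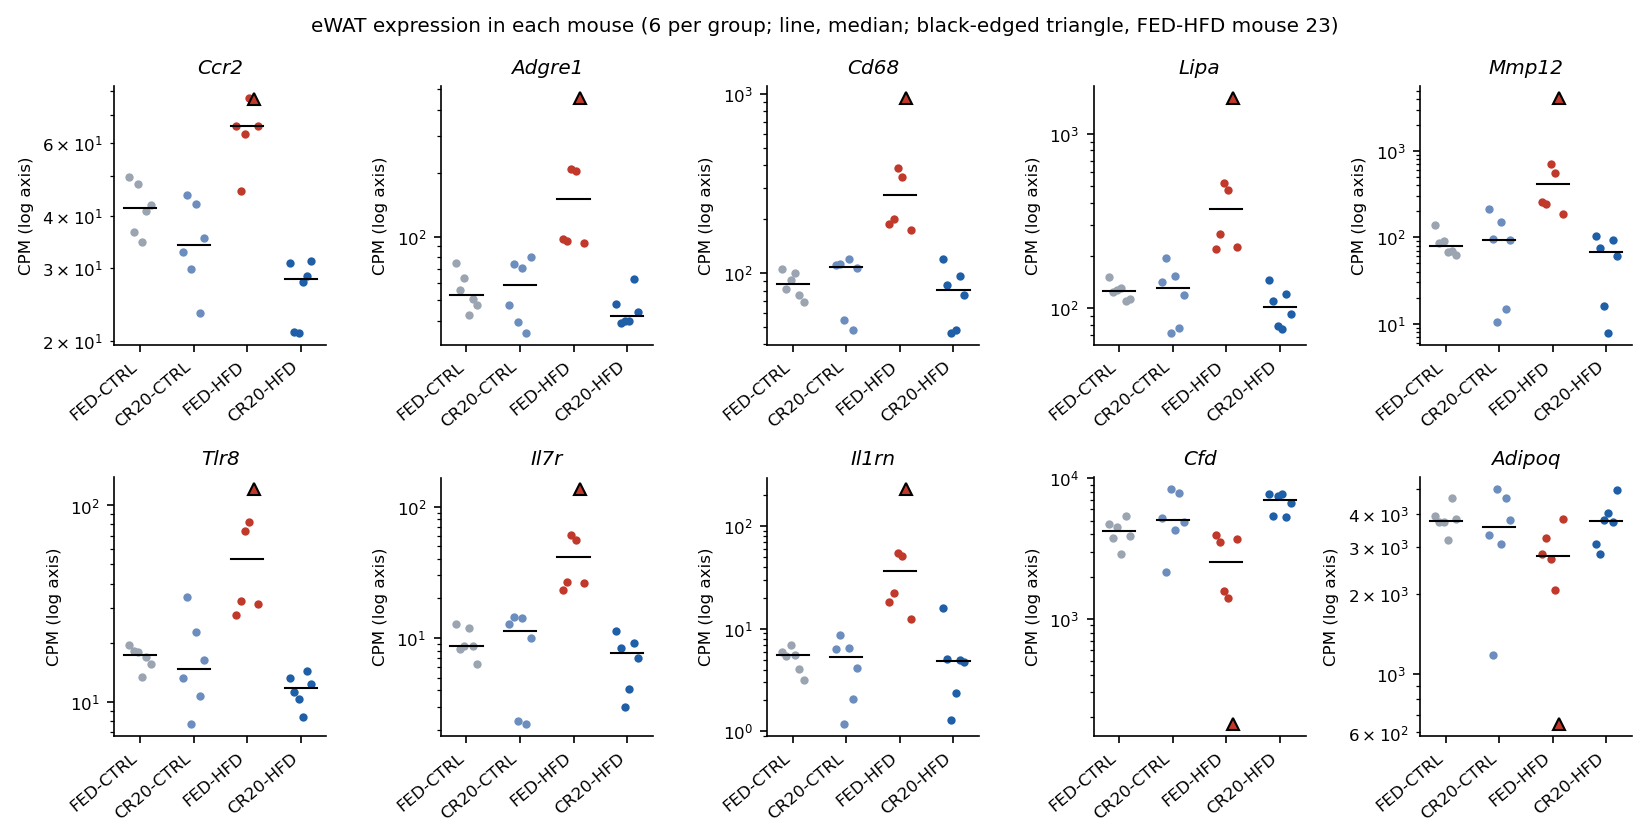
CPM (log axis) of 10 genes in each of the 24 eWAT mice, 6 per group, with a line at the median and a black-edged triangle for FED-HFD mouse 23. For Ccr2, Adgre1, Cd68, Lipa, Mmp12, Tlr8 and Il7r each CR20-HFD mouse lies below each FED-HFD mouse, Il1rn overlaps, Cfd lies higher in each CR20-HFD mouse, and Adipoq overlaps.

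Receptors by which phagocytes detect antibodies, lipids and microbes were lower as well. Of 18 Fc receptor and signalling genes 14 were called lower (median log2FC -1.40) and 17 passed the adjusted p-value. Over all tested genes 4.78% were called lower, and the members of the receptor lists were chosen with earlier results known. Fcgr3, an activating receptor for IgG, ranged from 81.9 to 353 CPM (median 121) in FED-HFD, and from 37.8 to 61.4 CPM (median 49.5) in CR20-HFD, without overlap (log2FC of -1.62, SE 0.25, adjusted p = 0.000601). The inhibitory receptor Fcgr2b passed the adjusted p-value with a smaller difference (log2FC of -0.44, SE 0.13, adjusted p = 0.0257). The kinases Syk (log2FC of -1.70, SE 0.29, adjusted p = 0.000854) and Btk (log2FC of -1.76, SE 0.28, adjusted p = 0.000601), which act downstream of these receptors, were lower, and so was the adaptor Lat2 (log2FC of -2.63, SE 0.45, adjusted p = 0.000859). Of 23 paired immunoglobulin-like and lectin receptors, 15 were called lower and none of the 23 had a log2FC above 0 (median -1.53). Among them were Cd300lb (log2FC of -2.59, SE 0.42, adjusted p = 0.000666), Cd300ld (log2FC of -2.39, SE 0.38, adjusted p = 0.000611) and the inhibitory Pirb (log2FC of -1.36, SE 0.27, adjusted p = 0.00183), genes of families whose members share sequence.

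Of 16 Toll-like receptors and adaptors, 7 were called lower and 13 passed the adjusted p-value (median log2FC -0.83), against 4.78% and 10.4% of all tested genes. Called were Tlr13, a sensor of bacterial ribosomal RNA (log2FC of -2.60, SE 0.40, adjusted p = 0.000601), Tlr7 (log2FC of -1.32, SE 0.27, adjusted p = 0.00212), Tlr1 (log2FC of -1.75, SE 0.33, adjusted p = 0.00125) and Unc93b1, the chaperone that carries nucleic acid sensors to endosomes (log2FC of -1.06, SE 0.20, adjusted p = 0.00133). The double-stranded RNA sensor Tlr3 had a log2FC of -0.21, SE 0.11, adjusted p = 0.202. Without mouse 23, 4 Toll-like genes were called lower.

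Of 9 genes of the phagocyte oxidase and other effector enzymes, 8 were called lower (median log2FC -1.72), against 4.78% of all tested genes. The oxidase makes superoxide, and among the called genes were its membrane parts Cybb (log2FC of -1.85, SE 0.32, adjusted p = 0.000824) and Cyba (log2FC of -1.61, SE 0.36, adjusted p = 0.00486), and its cytosolic parts Ncf1 (log2FC of -1.98, SE 0.36, adjusted p = 0.00118) and Ncf4 (log2FC of -1.72, SE 0.34, adjusted p = 0.00173). Without mouse 23, 5 of the 9 were called and 8 passed the adjusted p-value. Of 14 genes of leukocyte adhesion and cytoskeleton 9 were called lower (median -1.36), among them Lcp1, which bundles actin. Lcp1 ranged from 211 to 1224 CPM (median 355) in the FED-HFD mice, and from 60.5 to 142 CPM (median 96.0) in CR20-HFD, a separation of the groups in which mouse 23 was again the highest (log2FC of -2.28, SE 0.35, adjusted p = 0.000601). The integrin chain Itgb2 (log2FC of -2.38, SE 0.42, adjusted p = 0.000896) and the leukocyte antigen Ptprc (log2FC of -1.78, SE 0.27, adjusted p = 0.000601) were lower, and the lymphocyte integrin chain Itgal had a log2FC of -0.39, SE 0.33, adjusted p = 0.442.

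Among 21 chemokines 6 were called lower (median log2FC -0.59), and among 8 chemokine receptors 5 (median -1.12), against 4.78% of all tested genes. Ccl9, a chemokine for monocytes, ranged from 147 to 893 CPM (median 215) in FED-HFD, and from 44.6 to 133 CPM (median 75.8) in CR20-HFD, and the groups did not overlap (log2FC of -2.08, SE 0.36, adjusted p = 0.000897). Called too were Ccl3 (log2FC of -2.27, SE 0.62, adjusted p = 0.0172), Ccl4 (log2FC of -1.52, SE 0.44, adjusted p = 0.0215), Ccl6 (log2FC of -1.69, SE 0.30, adjusted p = 0.00105) and Ccl22 (log2FC of -1.40, SE 0.38, adjusted p = 0.0166). Ccl2, the ligand of Ccr2, passed the adjusted p-value just short of the fold threshold (log2FC of -0.99, SE 0.28, adjusted p = 0.0215). Ccr1, a receptor for Ccl3, was lower (log2FC of -1.47, SE 0.33, adjusted p = 0.00519), and Cx3cr1 did not pass (log2FC of -0.80, SE 0.29, adjusted p = 0.0684). Without mouse 23 the calls fell to 2 chemokines and 2 receptors.

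In the interleukin-1 and inflammasome list 7 of 17 genes were called lower (median log2FC -0.67), and in the list of other cytokines and receptors 8 of 19 (median -0.68). The share called lower over all tested genes was 4.78%. Il1rn, the secreted antagonist of the interleukin-1 receptor, ranged from 12.4 to 229.7 CPM (median 36.7) in FED-HFD, and from 1.29 to 16.1 CPM (median 4.88) in CR20-HFD. The groups overlapped, as CR20-HFD mouse 6 was above FED-HFD mouse 40, yet the gene was called (log2FC of -3.51, SE 0.66, adjusted p = 0.00125). Interleukin-1 beta itself (Il1b) was not (log2FC of -0.67, SE 0.48, adjusted p = 0.367). Casp1, the protease of the inflammasome, ranged from 35.0 to 82.7 CPM (median 50.7) in FED-HFD, and from 16.9 to 28.8 CPM (median 24.6) in CR20-HFD, without overlap (log2FC of -1.17, SE 0.22, adjusted p = 0.00118), but with a log2FC of -1.00 and no call without mouse 23.

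Il7r, a cytokine receptor chain, had values that ranged from 23.1 to 136 CPM (median 41.5) in FED-HFD, and from 2.97 to 11.4 CPM (median 7.70) in CR20-HFD. This was the widest difference in the second list, with no overlap (log2FC of -2.94, SE 0.49, adjusted p = 0.000718). Tumour necrosis factor (Tnf, log2FC of -1.27, SE 0.33, adjusted p = 0.0131), its receptor Tnfrsf1b (log2FC of -1.27, SE 0.25, adjusted p = 0.00160) and the interleukin-10 receptor Il10ra (log2FC of -1.20, SE 0.22, adjusted p = 0.00111) were lower too. Tnfaip2, a gene induced by tumour necrosis factor, ranged from 38.5 to 230.3 CPM (median 71.5) in FED-HFD, and from 25.7 to 44.7 CPM (median 33.3) in CR20-HFD, so that CR20-HFD mouse 32 was above FED-HFD mouse 11 (log2FC of -1.58, SE 0.32, adjusted p = 0.00205). Cd44, the hyaluronan receptor of leukocytes and other cells, ranged from 88.3 to 378 CPM (median 151) in FED-HFD, and from 33.4 to 66.9 CPM (median 50.7) in CR20-HFD, with no overlap (log2FC of -1.83, SE 0.29, adjusted p = 0.000601). The genes for interleukin-6 and interleukin-10 were too low to be tested. Without mouse 23, 2 of the 17 and 3 of the 19 genes were called.

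Antigen presentation genes were lower, mostly without reaching the fold threshold. Of 13 MHC class II and costimulation genes, all had a log2FC below 0 (median -0.72), 9 passed the adjusted p-value and 1 was called. The shares over all tested genes were 10.4% passed as lower and 4.78% called lower. That 1 was Ciita, the transactivator of MHC class II genes, with values that ranged from 29.4 to 95.6 CPM (median 59.3) in FED-HFD, and from 18.3 to 41.5 CPM (median 24.9) in CR20-HFD, and an overlap of the groups (log2FC of -1.11, SE 0.28, adjusted p = 0.0108). Without FED-HFD mouse 40 its log2FC was -0.94, which ended the call. H2-Ab1 (log2FC of -0.72, SE 0.15, adjusted p = 0.00327), H2-Eb1 (log2FC of -0.66, SE 0.16, adjusted p = 0.00675) and the invariant chain Cd74 (log2FC of -0.72, SE 0.16, adjusted p = 0.00437) resembled H2-Aa in size.

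Interferon and complement genes were divided, where 4.78% of all tested genes were called lower and 0.714% higher. Of 22 interferon response genes 5 were called lower (median log2FC -0.38), and among these were Irf5 and Irf8, transcription factors of myeloid cells, and the interferon-induced Oas1a (log2FC of -1.13, SE 0.32, adjusted p = 0.0197) and Oasl1 (log2FC of -1.56, SE 0.38, adjusted p = 0.00852). Irf5 ranged from 48.6 to 175 CPM (median 64.2) in the FED-HFD mice, and from 21.4 to 29.5 CPM (median 25.2) in CR20-HFD, with no overlap (log2FC of -1.64, SE 0.26, adjusted p = 0.000611), and Irf8 had a log2FC of -1.11, SE 0.21, adjusted p = 0.00147. Other interferon-induced genes, such as Isg15 (log2FC of -0.11, SE 0.27, adjusted p = 0.817) and Ifit1 (log2FC of -0.37, SE 0.34, adjusted p = 0.490), did not pass. Without mouse 23 the count was 1 of 22. Of 14 complement genes 3 were called lower and 1 higher. The receptor C3ar1 ranged from 52.3 to 292 CPM (median 86.0) in FED-HFD, and from 14.1 to 33.6 CPM (median 23.3) in CR20-HFD, with no overlap (log2FC of -2.26, SE 0.35, adjusted p = 0.000601), and C5ar1 (log2FC of -1.97, SE 0.31, adjusted p = 0.000601) and the integrin chain Itgb2, part of complement receptors, were lower. The chains of C1q did not pass the adjusted p-value, at log2FC of -0.16 in C1qa, -0.40 in C1qb and -0.27 in C1qc.

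Lysosomal and cell division genes were lower too, where 10.4% of all tested genes passed as lower and 4.78% were called lower. Of 26 lysosome genes 25 had a log2FC below 0 (median -0.87), 22 passed the adjusted p-value and 9 were called, among them the protease Ctss (log2FC of -2.25, SE 0.37, adjusted p = 0.000691), the galactosidase Gla (log2FC of -1.93, SE 0.33, adjusted p = 0.000856) and the metal transporter Slc11a1 (log2FC of -1.84, SE 0.32, adjusted p = 0.000926). Ctsb (log2FC of -0.88, SE 0.17, adjusted p = 0.00147) and Ctsd (log2FC of -0.87, SE 0.23, adjusted p = 0.0137), proteases of lysosomes in most cells, passed without the fold. Of 22 cell division genes all had a log2FC below 0 (median -1.18), 18 passed and 14 were called, such as Mki67 (log2FC of -1.26, SE 0.30, adjusted p = 0.00688), Top2a (log2FC of -1.19, SE 0.28, adjusted p = 0.00641) and Birc5 (log2FC of -1.35, SE 0.30, adjusted p = 0.00408). Mcm5, a helicase subunit of DNA replication, ranged from 14.6 to 43.8 CPM (median 18.5) in FED-HFD, and from 8.65 to 11.8 CPM (median 10.5) in CR20-HFD, with no overlap (log2FC of -1.10, SE 0.23, adjusted p = 0.00325). Without mouse 23, the log2FC of Mcm5 was -0.76, 1 of the 22 genes was called and 9 passed the adjusted p-value.

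Atf3, a transcription factor induced by stress, was the 1 gene called lower in the unfolded protein response list. Atf3 ranged from 42.5 to 344 CPM (median 72.3) in the FED-HFD mice, and from 15.0 to 39.9 CPM (median 24.3) in CR20-HFD, without overlap (log2FC of -2.17, SE 0.43, adjusted p = 0.00189), whereas the chaperone Hspa5 (log2FC of -0.27, SE 0.15, adjusted p = 0.225) did not pass. Asns, the asparagine synthetase, passed in the other direction (log2FC of 0.74, SE 0.21, adjusted p = 0.0202), and without mouse 23 0 genes of the list passed as higher. Plin2, a lipid droplet coat protein of macrophages and many other cells, was the 1 lower gene of 26 for triglyceride storage and lipolysis, with 846 to 2632 CPM (median 1030.5) in FED-HFD, and 445 to 716 CPM (median 639) in CR20-HFD (log2FC of -1.10, SE 0.24, adjusted p = 0.00383). All CR20-HFD mice were below all FED-HFD mice, and without mouse 23 its log2FC of -0.77 missed the fold threshold. The adipocyte coat protein Plin1 (log2FC of 0.47, SE 0.21, adjusted p = 0.141) and the lipases Lipe (log2FC of 0.35, SE 0.21, adjusted p = 0.275) and Pnpla2 (log2FC of 0.40, SE 0.21, adjusted p = 0.213) did not pass. A count of 1 called lower in lists of 10 and 26 genes is near the share of 4.78% over all tested genes.

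Leukocyte proteases were among the genes of matrix turnover that were lower, where 4.78% of all tested genes were called lower. Of 15 metalloproteinases and inhibitors 3 were called lower: Mmp12, Mmp19 (log2FC of -1.34, SE 0.28, adjusted p = 0.00255) and Adam8, a protease of leukocytes. Adam8 ranged from 62.3 to 828 CPM (median 170.3) in the FED-HFD mice, and from 10.6 to 51.1 CPM (median 28.0) in CR20-HFD, with no overlap (log2FC of -3.25, SE 0.61, adjusted p = 0.00123). Of 30 collagen and matrix genes 1 was called lower (median log2FC -0.23), which is near the share over all tested genes. It was Col12a1, which binds along collagen fibrils, with 41.0 to 70.6 CPM (median 51.0) in FED-HFD, and 15.0 to 44.0 CPM (median 23.3) in CR20-HFD and an overlap of the groups (log2FC of -1.00, SE 0.31, adjusted p = 0.0310). The call was lost without any of CR20-HFD mice 6, 7 and 32 and FED-HFD mice 10, 11 and 12, with a log2FC from -0.98 to -0.88. The fibrillar collagens Col1a1 (log2FC of -0.57, SE 0.32, adjusted p = 0.235) and Col3a1 (log2FC of -0.43, SE 0.32, adjusted p = 0.388) did not pass, and of 12 adipose progenitor genes none passed.

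Of 9 monocyte genes 3 were called lower (median log2FC -0.90), which were Ccr2, Ly6c2 (log2FC of -1.08, SE 0.30, adjusted p = 0.0175) and the coagulation factor F10 (log2FC of -1.72, SE 0.44, adjusted p = 0.0107), and without mouse 23 the count was 3. The list was divided, as 2 of the 9 had a log2FC above 0, the largest 0.51. Each CR20-HFD mouse lay above each FED-HFD mouse in 1 gene of the list and below in 2. This held for 2.5% and 4.17% of all tested genes, of which 4.78% were called lower. The monocyte sum overlapped, at 174 to 290 CPM in FED-HFD and 182 to 198 CPM in CR20-HFD. Among other leukocytes, 0 of 10 T cell, 0 of 10 B and plasma cell and 0 of 5 natural killer cell genes were called by edgeR at these levels, with 2 natural killer genes passing the adjusted p-value, Ncr1 (log2FC of -0.85, SE 0.27, adjusted p = 0.0378) and Klrk1 (log2FC of -0.89, SE 0.23, adjusted p = 0.0130), and 1 without mouse 23. The T cell receptor chain Cd3e had a log2FC of -0.04, SE 0.37, adjusted p = 0.957, and the T cell list summed to 14.6 to 26.9 CPM in FED-HFD and 12.3 to 21.1 CPM in CR20-HFD. Cd8a and Cd8b1 were too low to be tested. Of 10 dendritic cell genes 3 were called lower, Flt3, Siglech and Ccr7, and without mouse 23 the count was 1. Flt3, the growth factor receptor of dendritic cell precursors, ranged from 2.36 to 5.28 CPM (median 3.60) in FED-HFD, and from 0.841 to 1.78 CPM (median 1.35) in CR20-HFD, with no overlap (log2FC of -1.50, SE 0.27, adjusted p = 0.00104). Zbtb46, a factor of conventional dendritic cells, had a log2FC of -0.03, SE 0.15, adjusted p = 0.927. Siglecf, a receptor of eosinophils and of some macrophages, was the 1 gene called of 6 for granulocytes and mast cells, at 0.422 to 1.65 CPM (median 1.09) in FED-HFD, and 0 to 0.540 CPM (median 0.146) in CR20-HFD (log2FC of -2.17, SE 0.52, adjusted p = 0.00683). Several of these values lie near the level of 3 counts.

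**Figure D4:**
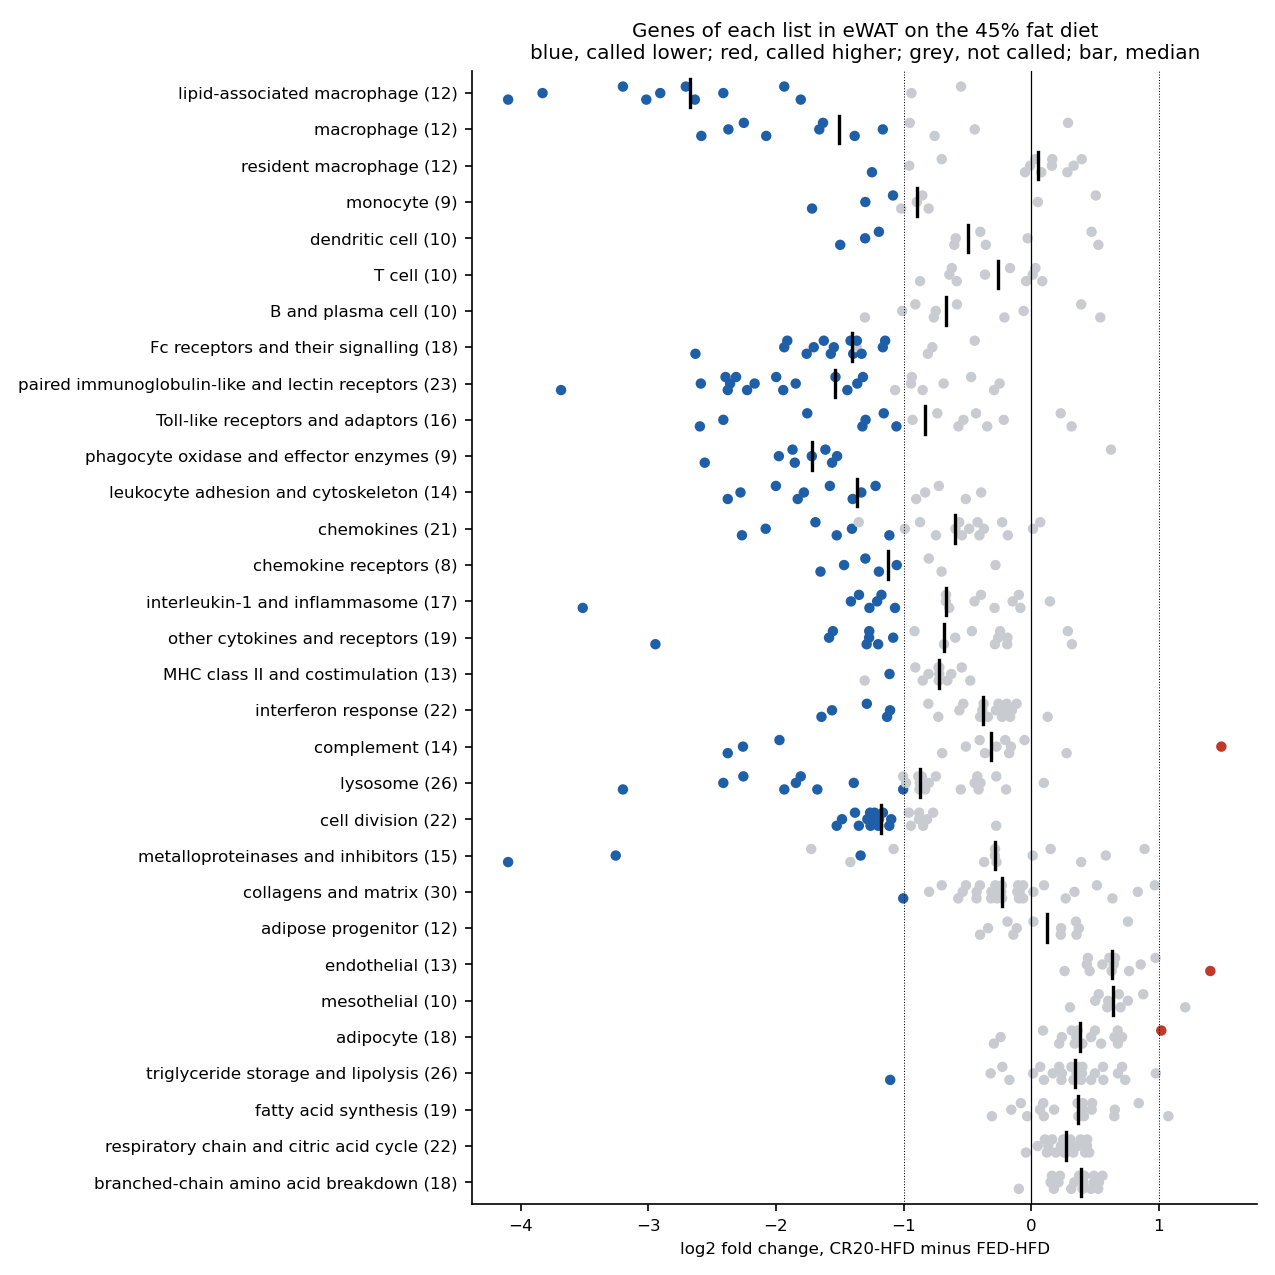
Log2FC (CR20-HFD minus FED-HFD) of each tested gene of 31 lists, with the number of genes in brackets. Points are coloured by call, the bar is the median of the list and dotted lines mark the fold threshold. The median lies at -2.67 for lipid-associated macrophages and at 0.63 for endothelial genes, and the median of all genes is 0.02.

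Genes higher in CR20-HFD were fewer and differed by less. Pacsin3, an adaptor of endocytosis (chromosome 2 from 91086095), had the smallest p-value of those called. Pacsin3 ranged from 4.91 to 17.96 CPM (median 11.5) in the FED-HFD mice, and from 23.1 to 33.2 CPM (median 26.9) in CR20-HFD, with each CR20-HFD mouse above each FED-HFD mouse (log2FC of 1.19, SE 0.19, adjusted p = 0.000611). The thyroid hormone receptor Thra had a smaller p-value in the test but did not reach the fold threshold (log2FC of 0.69, SE 0.09, adjusted p = 0.000522). Next came Lpar4, a receptor for lysophosphatidic acid. Lpar4 ranged from 1.01 to 2.11 CPM (median 1.20) in the FED-HFD mice, and from 2.82 to 3.72 CPM (median 3.14) in CR20-HFD, again with no overlap (log2FC of 1.25, SE 0.21, adjusted p = 0.000854). Secreted matrix proteins that were higher included Smoc1 (log2FC of 1.19, SE 0.23, adjusted p = 0.00189) and Ccn3 (log2FC of 1.05, SE 0.21, adjusted p = 0.00175). Prodh, which starts the breakdown of proline in mitochondria (log2FC of 1.03, SE 0.21, adjusted p = 0.00208), and Gchfr, which regulates the synthesis of tetrahydrobiopterin (log2FC of 1.24, SE 0.25, adjusted p = 0.00223), were among the 10 with the smallest p-values. Smoc1 ranged from 30.2 to 134 CPM (median 102) in the FED-HFD mice, and from 178 to 239 CPM (median 227) in CR20-HFD. The lncRNA Gm44386 (log2FC of 2.98, SE 0.57, adjusted p = 0.00137) was close to the detection level in FED-HFD, at 0 to 0.607 CPM.

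Few adipocyte genes passed in edgeR with all mice, all of them higher in CR20-HFD. Of 18 adipocyte genes 16 had a log2FC above 0 (median 0.38), and 1 was called, which was Retn. Voom with quality weights passed 6 of the 18 as higher and 1 as lower, and edgeR without FED-HFD mouse 23 passed 0. Of 13 adipokine genes and receptors 2 were called higher, Cfd and Retn, against 0.714% of all tested genes. Cfd (adipsin, complement factor D) had values that ranged from 178 to 3961 CPM (median 2556) in FED-HFD, and from 5317 to 7782 CPM (median 7033) in CR20-HFD. Each CR20-HFD mouse was above each FED-HFD mouse, and mouse 23 lay far below the rest (log2FC of 1.49, SE 0.43, adjusted p = 0.0226). Its adjusted p-value was 0.0751 when only the 2 groups were fitted, which ended the call. Retn (resistin) ranged from 121 to 1029.7 CPM (median 527) in FED-HFD, and from 942 to 1284 CPM (median 1148) in CR20-HFD, with some overlap (log2FC of 1.02, SE 0.35, adjusted p = 0.0493). The call was lost in 10 of the 12 fits that left out 1 mouse (all but FED-HFD mice 10 and 40), with a log2FC from 0.81 to 1.07. Adipoq ranged from 644 to 3829 CPM (median 2775) in FED-HFD, and from 2836 to 4931 CPM (median 3779) in CR20-HFD, with overlap (log2FC of 0.55, SE 0.30, adjusted p = 0.230). Leptin (Lep), which is made in proportion to fat mass, ranged from 1459 to 3804 CPM (median 2845) in FED-HFD, and from 988 to 2896 CPM (median 2580.5) in CR20-HFD (log2FC of -0.29, SE 0.24, adjusted p = 0.427). Neither Adipoq nor Lep passed the test. The insulin-regulated glucose transporter Slc2a4 missed the threshold (log2FC of 0.68, SE 0.26, adjusted p = 0.0813), though no CR20-HFD mouse overlapped with a FED-HFD mouse.

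Genes of mitochondria and amino acid breakdown had small positive log2FC. Of 22 respiratory chain and citric acid cycle genes 21 were above 0 (median log2FC 0.27) and 5 passed the adjusted p-value, such as Ndufv1 (log2FC of 0.44, SE 0.12, adjusted p = 0.0157) and Cox4i1 (log2FC of 0.39, SE 0.12, adjusted p = 0.0307), with 0 called. Without mouse 23, 1 passed. Of 18 genes of branched-chain amino acid breakdown 17 were above 0 (median 0.39), and 2 passed, Pccb (log2FC of 0.56, SE 0.18, adjusted p = 0.0341) and Acadsb (log2FC of 0.49, SE 0.17, adjusted p = 0.0472). In fatty acid synthesis 1 of 19 passed, the carboxylase Acacb (log2FC of 0.84, SE 0.29, adjusted p = 0.0511), and Acly had a log2FC of 0.40, SE 0.38, adjusted p = 0.506. Of 16 genes of cholesterol synthesis 1 passed as higher, the synthase Fdft1 (log2FC of 0.59, SE 0.16, adjusted p = 0.0138), 2 passed as lower and 0 were called. Without mouse 23, 1 gene of branched-chain amino acid breakdown, 0 of fatty acid synthesis and 1 of cholesterol synthesis passed, the last as higher. Over all tested genes 5.28% passed as higher and 10.4% as lower in edgeR, so edgeR counts of 1 or 2 in lists of this size are near the general share. Voom with quality weights passed more as higher, 12 of 22 respiratory chain, 8 of 18 branched-chain and 3 of 19 fatty acid synthesis genes. It passed 1 fatty acid synthesis gene as lower, and 1 cholesterol synthesis gene in each direction. The share over all genes in voom is not given here. Cpt1a, the entry enzyme of fatty acid oxidation, was lower (log2FC of -0.56, SE 0.14, adjusted p = 0.0112), as was Pdk4, the kinase that shuts pyruvate dehydrogenase (log2FC of -0.77, SE 0.25, adjusted p = 0.0385). In insulin signalling 3 of 19 genes passed and 0 were called. Of 9 thermogenic genes 1 passed, the factor Ebf2 (log2FC of 0.74, SE 0.20, adjusted p = 0.0175), and the uncoupling protein Ucp1 did not (log2FC of -1.51, SE 0.81, adjusted p = 0.213).

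Vessel genes were above 0 throughout their list. Of 13 endothelial genes all had a positive log2FC (median 0.63), 5 passed and 1 was called. For this list and the next ones, the shares over all tested genes were 5.28% passed as higher and 0.714% called higher. The called gene was Esm1, which is secreted by the tips of growing vessels, at 0.138 to 1.06 CPM (median 0.644) in FED-HFD, and 1.01 to 2.31 CPM (median 1.66) in CR20-HFD (log2FC of 1.40, SE 0.38, adjusted p = 0.0146). FED-HFD mouse 40 overlapped with CR20-HFD mouse 6 there. The summed endothelial level was 313 to 716 CPM in FED-HFD and 690.3 to 1131 CPM in CR20-HFD, and without mouse 23 3 genes passed. Emcn (log2FC of 0.97, SE 0.21, adjusted p = 0.00308), Gpihbp1, which carries lipoprotein lipase to the capillary surface (log2FC of 0.86, SE 0.25, adjusted p = 0.0220), and Egfl7 (log2FC of 0.77, SE 0.25, adjusted p = 0.0396) passed without the fold, and Pecam1 did not pass (log2FC of 0.66, SE 0.29, adjusted p = 0.123). Of 6 pericyte and smooth muscle genes, Tagln was called at 0.787 to 1.29 CPM (median 0.986) in FED-HFD, and 1.24 to 3.43 CPM (median 2.59) in CR20-HFD (log2FC of 1.23, SE 0.34, adjusted p = 0.0167), and Rgs5 passed (log2FC of 0.84, SE 0.21, adjusted p = 0.00825). All 10 mesothelial genes were above 0 with 0 called, and their summed level ran from 60.6 to 953 CPM in CR20-HFD and from 186 to 963 CPM in FED-HFD. The skeletal muscle actin Acta1 was called (log2FC of 1.29, SE 0.40, adjusted p = 0.0315), with values that ranged from 5.97 to 22.6 CPM (median 12.8) in FED-HFD, and from 10.2 to 54.4 CPM (median 30.1) in CR20-HFD. The call was lost without any of CR20-HFD mice 31 and 45 and FED-HFD mice 13 and 23, with a log2FC from 1.07 to 1.29. The 4 other muscle genes that were tested had a log2FC of 0.14 to 0.71, of which Myl1 passed with all mice, and Ckm, Myh4 and Atp2a1 were too low.

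Hsd11b1, which regenerates active glucocorticoid in adipose tissue, was the 1 gene called of 10 in the glucocorticoid response list. The share called higher over all tested genes was 0.714%. Hsd11b1 ranged from 22.9 to 107 CPM (median 67.8) in the FED-HFD mice, and from 96.2 to 265 CPM (median 144) in CR20-HFD, with a slight overlap (log2FC of 1.21, SE 0.34, adjusted p = 0.0184). Without CR20-HFD mouse 32 its log2FC was 0.98, which ended the call. The glucocorticoid-induced genes Fkbp5 (log2FC of 0.38, SE 0.24, adjusted p = 0.288) and Tsc22d3 (log2FC of 0.11, SE 0.12, adjusted p = 0.563) did not pass. Of 19 imprinted genes 1 passed in each direction, Plagl1 (log2FC of 0.87, SE 0.29, adjusted p = 0.0451) and Igf2r (log2FC of -0.66, SE 0.19, adjusted p = 0.0199), and 0 were called. Without mouse 23, 1 passed as higher and 0 as lower. Peg3, a paternally expressed zinc finger gene, ranged from 73.6 to 289.8 CPM (median 206) in FED-HFD, and from 175 to 397 CPM (median 247) in CR20-HFD, and did not pass (log2FC of 0.38, SE 0.32, adjusted p = 0.449). Of 17 circadian clock genes 1 passed, Cry2 (log2FC of 0.47, SE 0.16, adjusted p = 0.0527), and Bmal1 had a log2FC of 0.22, SE 0.45, adjusted p = 0.781. The counts of imprinted and clock genes are near or below the shares over all tested genes, of which 5.28% passed as higher and 10.4% as lower.

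Several of the largest fold changes rested on a few mice. Of the 5 lower genes with the largest log2FC, 3 were hepatocyte genes, Apoa2 (log2FC of -6.70, SE 1.81, adjusted p = 0.0155), Apoa1 (log2FC of -5.60, SE 1.65, adjusted p = 0.0249) and Pzp (log2FC of -5.15, SE 1.42, adjusted p = 0.0177). Apoa2 ranged from 0.152 to 71.0 CPM (median 0.563) in FED-HFD, and from 0 to 0.297 CPM (median 0.125) in CR20-HFD, with mouse 10 at the top. Over the 8 hepatocyte genes that were tested 6 were called lower, and 0 were called without FED-HFD mice 10 and 13, where their median log2FC was 0.04. The hepatocyte list was put together after its values were seen. Ighg1, an immunoglobulin heavy chain (log2FC of -5.39, SE 1.78, adjusted p = 0.0425), and Serpinb9b (log2FC of -5.32, SE 0.98, adjusted p = 0.00117) complete the 5, with FED-HFD values up to 133 and 65.5 CPM and medians of 0.615 and 1.78 CPM. Serpinb9b was called in each of the 12 fits that left out 1 mouse, and Ighg1 in 6 of them. On the other side, the chemokine Ccl21a (log2FC of 7.97, SE 2.26, adjusted p = 0.0200) ranged from 0 to 74.2 CPM (median 0.403) in CR20-HFD against 0 to 0.268 CPM in FED-HFD, and Ighv7-1 (log2FC of 5.24, SE 1.74, adjusted p = 0.0440) from 0 to 6.69 CPM (median 0) in CR20-HFD, so that the median mice were at or near 0. Fitted folds of such genes depend on the prior count and are no measure of size. Cyp2e1, a cytochrome P450 of liver and fat, was higher (log2FC of 3.28, SE 0.81, adjusted p = 0.00903). It ranged from 1.01 to 83.3 CPM (median 19.9) in FED-HFD, and from 76.9 to 960.0 CPM (median 162) in CR20-HFD, and only FED-HFD mouse 10, which holds liver transcripts, reached into the CR20-HFD values. It too was called in each of the 12 fits.

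On the control diet the same maternal contrast, CR20-CTRL vs FED-CTRL, used other mice and gave 0 calls by edgeR (smallest adjusted p-value 0.235), while 1180 genes (7.39%) had a p-value below 0.05 before adjustment. DESeq2 called 147 genes there and voom 0. The 763 genes called lower on the HFD had a median log2FC of 0.04 on the control diet, with 316 of them of the same sign, and the 114 called higher had a median of 0.30, with 89 of the same sign. Adgre1 had a log2FC of 0.05 on the control diet and -2.08 on the HFD, Mmp12 0.16 and -4.10, Il7r -0.01 and -2.94, and Ccr2 -0.27 and -1.30. The difference between the diets (the log2FC on the HFD minus that on the control diet) was tested as an interaction, in which 363 genes (2.27%) were called, 356 with a lower (2.23%) and 7 with a higher value (0.0438%). This test uses the same HFD mice as the comparison above. Of the 24 fits that left out 1 mouse, 9 called 0 genes, and so did the fit without the 3 mice with epididymis transcripts (CR20-HFD mouse 6 and CR20-CTRL mice 4 and 5). Among the 9 was the fit without CR20-CTRL mouse 5, the mouse with liver transcripts. In these fits the smallest adjusted p-value, which is 0.0322 with all mice, rose to between 0.0569 and 0.139.

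**Figure D5:**
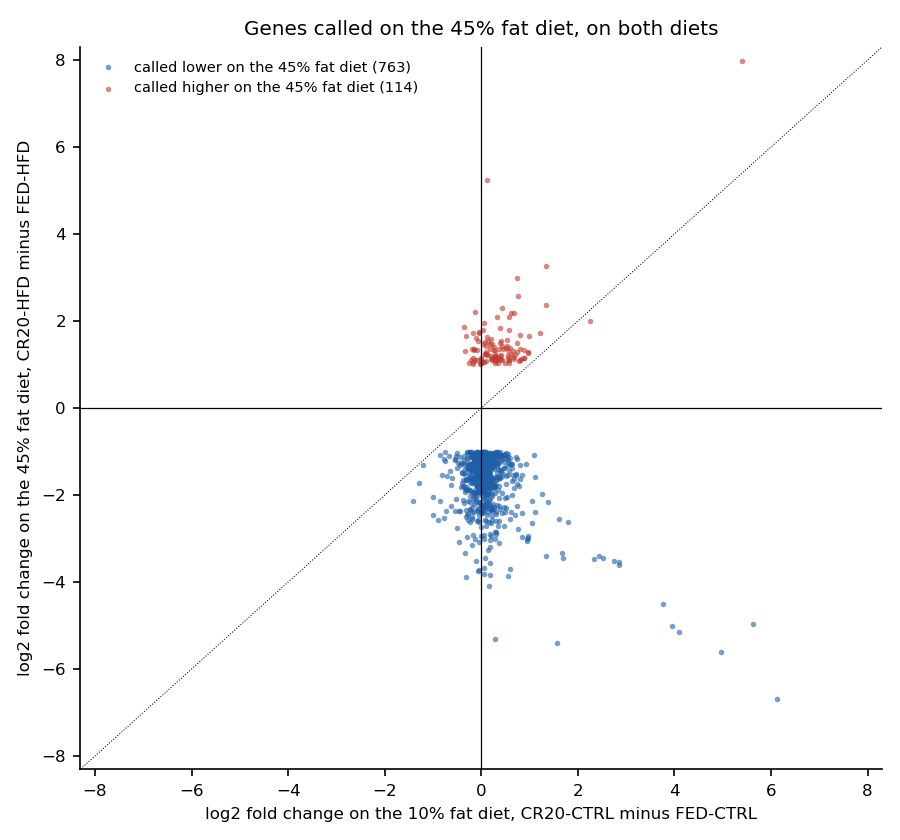
Log2FC between CR20 and FED offspring on the 45% fat diet (vertical) and on the 10% fat diet (horizontal) for the genes called on the 45% fat diet, 763 lower and 114 higher. The lower genes gather around 0 on the horizontal axis, with a median of 0.04, and the dotted line marks equal values. The points far to the lower right include the hepatocyte gene Apoa2, at 6.12 on the control diet, where CR20-CTRL mouse 5 holds liver transcripts, and -6.70 on the HFD, where FED-HFD mice 10 and 13 do.

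The same mice gave 0 calls in liver by edgeR, where the smallest adjusted p-value was 0.0675 and 493 genes (3.58%) had a p-value below 0.05 before adjustment. In pituitary they gave 0, with 0.388 and 1127 genes (6.77%). Voom called 0 in both, and DESeq2 1 in liver and 0 in pituitary. Of the genes called lower in eWAT, 513 were tested in liver and 555 in pituitary, with median log2FC of 0.01 and -0.02. Whether the eWAT difference was larger than that in the other tissues was not tested.

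The labels number the mice, and what the ranges of numbers stand for is not stated. Numbers under 20 hold 2 CR20-HFD and 4 FED-HFD mice, 20 to 39 hold 2 and 1, and 40 and above hold 2 and 1. The direction of the 763 lower genes was the same within these ranges for 763, 756 and 739 genes, and in all 3 ranges for 733. For the 114 higher genes it was the same for 113, 113 and 102, and in all 3 for 101. The genes were called from these same mice, so much of this agreement follows from their selection. It is no separate test of the difference. The median difference of the lower genes on the log2 CPM scale was -1.06, -2.66 and -0.75, the middle range being the one that holds mouse 23. With the range as a covariate 907 genes were called, 801 of them among the 877.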

How the data were processed

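RNA-seq of eWAT, liver and pituitary of male mice was deposited as a table of raw counts per Ensembl gene. Per the labels and the methods of the study, the authors trimmed reads with Trimmomatic, aligned them with STAR to GRCm39 and made the counts with featureCounts of Subread. Tool versions and the strand setting are not given in the sources used here, which leaves overlapping or antisense genes uncertain, and so are near-identical copies (Pira2, Art2a, Cd300, H2 and immunoglobulin genes, Ccl21a). Of 55416 genes, 54749 were given GENCODE M39 symbols.

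Counts of the 24 eWAT libraries were filtered with filterByExpr, scaled by TMM and fitted with 4 group means in edgeR 4.0.16 (R 4.3.3, glmQLFit and glmQLFTest, Benjamini-Hochberg adjustment). The SE is the absolute log2FC divided by the square root of F. log2 CPM used a prior count of 2. Liver and pituitary were fitted alone in the same way. limma 3.58.1 (voom with quality weights, the test of the study) and DESeq2 1.42.0 were alternatives, beside other filters, size factors, groups, an animal-number range as a covariate and each mouse left out in turn. Libraries of an eWAT group differed by more than counting noise (chi-square per degree of freedom of at least 12.1), so none is a copy of another. Each has its own animal number and was counted as a sample of its own. Whether mice of a group share a litter cannot be seen from this. The 3-count floors cover counting error only.

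The members, gene lists and the genes named were chosen with earlier results of these data known. Named were the 7 cytokine genes and Peg3 that the study names, the 10 genes called with the smallest p-value and the 5 with the largest log2FC in each direction, and of each list the first 3 members and up to 4 more with the smallest p-value. Oas1a falls outside this rule and was picked once its value was known. The promoters are those of the 2 protein-coding genes with the smallest p-value in each direction. The scripts were tested on simulated data. A few genes of the lists are counted but not reported here by name.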

Additional observations from a re-analysis of the deposited data

Results flagged for a closer look

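FED-HFD mouse 23 lay apart from the other 5 mice of its group in 4 of the 74 groups of values that were tested for this, which were 37 genes in each of the 2 HFD groups. Its gap to the nearest mouse, as a share of the range of the group on the log2 CPM scale, was 0.655 in Adipoq and 0.665 in Cfd, where it was the lowest, and 0.634 in Irf5 and 0.681 in Mcm5, where it was the highest. Each is above the limit of Dixon's test for 6 samples, and chance flags about 1 in 20 groups.

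The effect of the dam's food differed between the 2 diets in 363 genes (2.27% of those tested) by the interaction test of edgeR. Of the 37 genes followed by mouse 20 were among them. Most of the 37 were picked for a small p-value on the HFD, and the interaction uses the same HFD mice. A high share among them is therefore built in. The differences (log2, CR20 minus FED on the HFD, minus the same on the control diet) among genes of macrophages and their receptors were -2.12 in Adgre1, -2.33 in Cd68, -2.53 in Cd84, -2.41 in Lipa, -4.26 in Mmp12, -1.63 in Fcgr3, -1.92 in Pira2, -2.45 in Tlr8 and -2.35 in C3ar1. Those in chemokine and cytokine genes were -1.03 in Ccr2, -1.9 in Ccl9, -2.93 in Il7r, -3.4 in Il1rn and -1.62 in Tnfaip2. Other values were -2.26 in Lcp1, -1.8 in Cd44, -3.4 in Adam8, -1.68 in Irf5 and -2.3 in Atf3. The count of 363 went to 0 when any of 9 single mice was left out.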

How the results depend on the processing

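No paired analysis was possible because the animal numbers tie the tissues of 1 mouse, and no 2 groups of a tissue share a number. None of the log2FC of the 37 genes followed by mouse changed sign. Of the lists, 5 had a median that changed sign in 1 or more of the alternatives compared: hepatocyte genes (-5.00, and 0.04 without FED-HFD mice 10 and 13), and resident macrophage, thermogenic, adipose expansion and fatty acid oxidation genes, whose medians were -0.01 to 0.14 with all mice. In CR20-HFD vs FED-HFD the count of 877 went from 446 (without FED-HFD mouse 23) to 1024 when 1 mouse was left out, and was 1554 with an absolute log2FC of at least 0.58 (391 higher, 1163 lower). It was 663 with voom, 960 with DESeq2, 898 with DESeq2 size factors, 893 without a filter, 794 with over 1 CPM in at least 6 libraries, 736 with only the HFD groups and 907 with the range covariate. The interaction count of 363 was 109 with voom, 665 with DESeq2, 0 without the 3 mice with epididymis transcripts and 0 to 609 when 1 mouse was left out. In CR20-CTRL vs FED-CTRL the count of 0 was 147 with DESeq2 (147 higher) and 0 in each leave-one-out fit. In liver it was 1 with DESeq2, and in pituitary 19 without a filter (5 higher, 14 lower), and both were 0 in each leave-one-out fit. Of the log2FC of the 37 genes, 418 were unchanged in call and 26 lost their threshold over the leave-one-out fits, and 318 and 14 over the other alternatives. The alternatives without FED-HFD mice 10 and 13 and without the mice with epididymis transcripts were chosen after seeing the data. The causes were not tested. Depth limits the genes near 3 counts, such as Siglecf.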
